A study of Mus musculus with 12 samples.

Results

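The Hedgehog pathway members examined here are 7 genes: the transcription factors Gli1, Gli2 and Gli3, the receptor Ptch1, the signal transducer Smo, the inhibitor Sufu and the ligand decoy Hhip. They were found by symbol in the count table of mouse neural stem cell (NSC) cultures, where all 7 were present among 17365 genes. RNA-seq covered 12 libraries from NSCs of the adult mouse subventricular zone (SVZ, 6 to 8 weeks of age), 4 for each of 3 media. In EGF/FGF the cells received EGF and FGF2 and proliferated. In BMP they received BMP-4 without EGF or FGF2, which the study calls dormant quiescent NSCs (d-qNSCs), and in BMP/FGF they received BMP-4 and FGF2, called primed quiescent NSCs (p-qNSCs). Each factor was given at 10 ng/ml and the BMP treatments lasted 3 days, in a serum-free medium with N2, B27 and laminin that all groups shared. In each medium 2 libraries came from the ANS4 line (MF1 strain) and 2 from the BL6 line (C57BL/6 strain). Each strain is thus represented by a single cultured line, no cells carried a genetic change by the labels, and the sources list no Hedgehog ligand among the additives. The 2 replicates of a line and medium are called biological in the study, but the sources do not say whether they were separate cultures, so that p-values measure only the spread between these samples.

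Hedgehog ligands (Shh, Ihh and Dhh) bind Ptch1, which otherwise keeps Smo inactive. Active Smo signals through the primary cilium to release Gli proteins from Sufu and from processing into repressors, with Gli2 acting mainly as an activator and Gli3 mainly as a repressor. Gli1, Ptch1 and Hhip are themselves classical targets of the pathway, Gli1 amplifying the response while Ptch1 and Hhip restrain it. In the adult SVZ, Shh signaling is known for specifying ventral NSCs, and Gli1 marks NSCs that respond to it.

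In these cultures Ptch1 was higher and Gli1 and Gli3 were lower in both quiescent conditions than in EGF/FGF, whereas Smo did not pass the test in any comparison. Ptch1 rose 1.77-fold in BMP and 1.76-fold in BMP/FGF. Gli1 was scarce throughout, at 25 to 39 counts a library in EGF/FGF, only 1 to 6 in BMP, and 7 or 8 in BMP/FGF. Its level was high enough to enter the test only in EGF/FGF. The comparison of BMP/FGF with BMP, which bears on the study's question of how the p-qNSC and d-qNSC states differ, called Gli1 (higher) and Sufu (lower), and the Gli1 call was lost when either ANS4 BMP library was left out. Hhip had 0 to 2 counts in every library.

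Library totals lay between 18069052 and 19451818 counts. Levels are given as CPM, each count taken relative to its library's total as scaled by the TMM method, on which a single count equals 0.0516 to 0.0559. All 10 NSC markers examined were present in every library, with summed levels of 7443 to 8081 CPM in EGF/FGF, 10239 to 11382 CPM in BMP and 13143 to 13605 CPM in BMP/FGF. Against EGF/FGF 8 of them, such as Vim and Slc1a3, were higher in both quiescent conditions, whereas Nes fell 4.50-fold and Fabp7 5.25-fold in BMP, and 4.92-fold and 1.75-fold in BMP/FGF. The 8 proliferation markers summed to 2532 to 3008, 432 to 625 and 305 to 325 CPM, and all 8 were lower in each quiescent condition. Markers of other cells also moved. The 10 neuroblast and neuron markers summed to 64.1 to 82.7 CPM in EGF/FGF, 606 to 1205 CPM in BMP and 235 to 268 CPM in BMP/FGF. The 10 oligodendrocyte markers ran from 93.3 to 104, from 255 to 307 and from 341 to 356, while the 9 ependymal markers in the table ran from 74.1 to 92.6, from 251 to 310 and from 241 to 253. Foxj1, at 59.6, 194 and 181 CPM, made up most of the ependymal sum. Of 7 tested ependymal markers 3 were lower in BMP/FGF than in BMP and 4 were not called, where 21.3% of all tested genes were lower. Of 12 microglial markers 6 were in the table, with sums of 9.56 to 14.7, 5.31 to 6.18 and 7.15 to 9.37 CPM. Csf1r and Siglech were at 3 counts or fewer in every library, Itgam, at 55 to 245 counts, fell 2.93-fold in BMP (FDR = 2.74e-08), and P2ry12 had 16 to 62 counts. The 8 endothelial and mural markers in the table summed to 41.2 to 49.2, 10.58 to 12.1 and 22.4 to 29.9 CPM. The sum was highest in EGF/FGF and lowest in BMP, as were the means of Gli1, Shh and Dhh. Flt1, at 39.7, 4.81 and 14.9 CPM, made up most of the sum in EGF/FGF. The other tested markers did not follow this order, each having its lowest mean in EGF/FGF. Pdgfrb and Acta2 were higher in both quiescent conditions. Rgs5 was higher in BMP/FGF, at 57 to 73 counts against 18 to 31 in EGF/FGF. Pecam1 and Tek were at 8 counts or fewer in every library, and Kcnj8 was at 3 counts or fewer. The part of these cells in the results below was not tested, and in bulk RNA fewer cells of a type and less RNA per cell cannot be told apart.

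Genes were tested in all 12 libraries together with edgeR's quasi-likelihood test, with medium and cell line as terms, and called at a false discovery rate (FDR, Benjamini-Hochberg over 13312 tested genes) under 0.05. Of the 7 members 6 were tested. Hhip did not pass the filter on low counts, and Gli1, whose level lay above the filter's 0.535 CPM only in EGF/FGF, passed through that condition alone. Between BMP and EGF/FGF, 1 tested member was higher and 2 were lower, where 40.8% of all tested genes were higher and 38.8% lower. Between BMP/FGF and EGF/FGF, 1 was higher and 4 were lower, against 40.9% and 38.0% of all genes. Between BMP/FGF and BMP, 1 was higher and 1 lower, against 20.1% and 21.3%. The median log2 fold change of the tested members was -0.07, -0.29 and -0.04 in these comparisons, and that of all tested genes 0.02, 0.02 and -0.00. The 3 comparisons share their libraries in pairs and are not independent of each other.

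**Figure D1:**
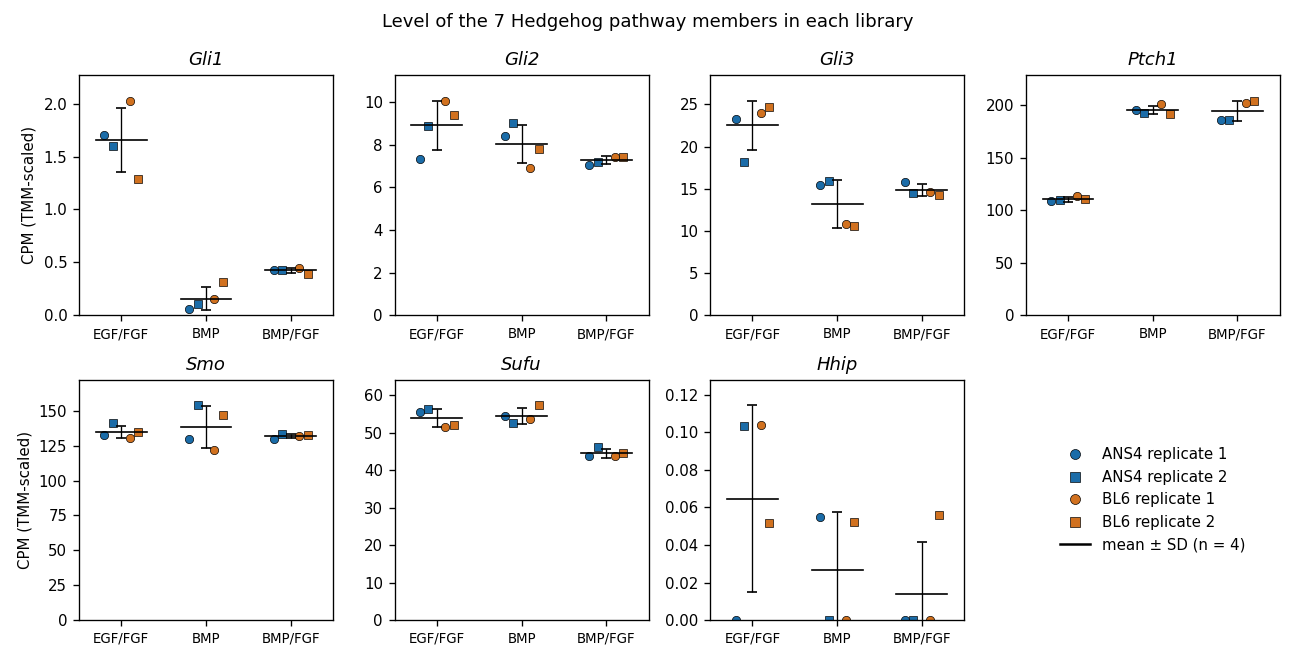
Level of each member in each library, in TMM-scaled CPM on linear axes that start at 0, by medium. Circles and squares mark replicates 1 and 2 of the ANS4 (blue) and BL6 (orange) lines, and bars give the mean ± SD of 4 libraries. Ptch1 sits between 108 and 114 CPM in EGF/FGF and between 186 and 204 in the quiescent conditions, while Gli1 falls from 1.29 to 2.03 CPM to at most 0.447.

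Ptch1, the receptor that holds Smo in check and a target of the pathway, lies at chr13:63508328-63573598 on the minus strand (GRCm38). In EGF/FGF its level was 108 and 109.6 CPM in the ANS4 replicates and 114 and 110.2 in the BL6 replicates. In BMP it was 195 and 193 in ANS4 and 200.5 and 192 in BL6. In BMP/FGF it was 186 in both ANS4 libraries and 201 and 204 in BL6. Every quiescent library thus lay above every proliferating one, while the ranges of the quiescent conditions overlapped. Groups without overlap were seen for 71.1% of all tested genes between BMP and EGF/FGF and for 75.8% between BMP/FGF and EGF/FGF. The log2 fold change against EGF/FGF was 0.82 (SE 0.05, FDR = 8.09e-11) in BMP and 0.81 (SE 0.05, FDR = 1.01e-10) in BMP/FGF. Within the lines it was 0.83 in ANS4 and 0.81 in BL6 for BMP, and 0.77 and 0.86 for BMP/FGF. The difference between BMP/FGF and BMP did not pass the test (log2 fold change -0.01, 95% CI -0.12 to 0.10, FDR = 0.923).

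Smo, the membrane protein that carries the signal inward, lies at chr6:29735503-29761365 on the plus strand. Its level in EGF/FGF was 133 and 141 CPM in ANS4 and 130.3 and 135 in BL6. In BMP the replicates of each line lay apart, at 129.8 and 154 in ANS4 and 122 and 147 in BL6, with replicate 2 the higher in both lines. In BMP/FGF all 4 libraries lay between 130.1 and 133 CPM. Smo passed the test in no comparison, with log2 fold changes of 0.04 (95% CI -0.11 to 0.18, FDR = 0.627) in BMP and -0.03 (95% CI -0.17 to 0.11, FDR = 0.694) in BMP/FGF against EGF/FGF, and -0.07 (95% CI -0.21 to 0.08, FDR = 0.459) between the quiescent conditions. The log2 ratio of Ptch1 to Smo counts, not corrected for transcript length, was -0.29 ± 0.07 (SD, n = 4) in EGF/FGF, 0.50 ± 0.18 in BMP and 0.56 ± 0.07 in BMP/FGF.

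Sufu, which binds Gli proteins and holds them in the cytoplasm, lies at chr19:46396896-46488804 on the plus strand. It stood at 55.7 and 56.3 CPM in ANS4 and 51.7 and 52.2 in BL6 in EGF/FGF, and at 54.4 and 52.6 in ANS4 and 53.6 and 57.3 in BL6 in BMP. In BMP/FGF it was lower, at 43.8 and 46.2 in ANS4 and 43.7 and 44.5 in BL6. All 4 BMP/FGF libraries lay under the 8 others. The log2 fold change was -0.28 (SE 0.06, FDR = 0.000357) against EGF/FGF and -0.29 (SE 0.06, FDR = 0.000796) against BMP, a fall of 1.21-fold and 1.22-fold. Groups without overlap were seen for 35.6% of all tested genes between BMP/FGF and BMP. BMP and EGF/FGF differed by 0.02 (95% CI -0.11 to 0.14, FDR = 0.819). The change against BMP was -0.25 in ANS4 and -0.33 in BL6. Sufu was called lower in both of these comparisons in 18 of 18 alternative analyses, with the change against BMP between -0.34 and -0.25.

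Gli1, an activator and the usual readout of pathway activity, lies at chr10:127329882-127341974 on the minus strand. Its counts in EGF/FGF were 33 and 31 in ANS4 and 39 and 25 in BL6, or 1.29 to 2.03 CPM. In BMP they were 1 and 2 in ANS4 and 3 and 6 in BL6. In BMP/FGF they were 8 in both ANS4 libraries and 8 and 7 in BL6. The 3 conditions did not overlap. Of all tested genes, 71.1% had no overlap between BMP and EGF/FGF and 75.8% between BMP/FGF and EGF/FGF. The share was 35.6% between the quiescent conditions. The summed counts of 128, 12 and 31 gave a level 10.3-fold lower in BMP than in EGF/FGF (95% interval 5.70 to 20.5) and 3.90-fold lower in BMP/FGF than in EGF/FGF (2.62 to 5.97), intervals that cover counting error only. In the fit the log2 fold change was -3.32 (SE 0.35, FDR = 7.71e-08) in BMP and -1.95 (SE 0.29, FDR = 6.46e-06) in BMP/FGF. Gli1 passed the filter on low counts through EGF/FGF alone, where it was high, so these calls are not independent of that selection. Both calls held in 18 of 18 alternatives, although on the deposited rlog values, which shrink low counts, the changes were -1.35 and -0.86.

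Between the quiescent conditions, Gli1 was 2.64-fold higher in BMP/FGF by summed counts (95% interval 1.32 to 5.66, counting error only), with a fitted log2 fold change of 1.37 (SE 0.45, FDR = 0.0213). Both conditions lay under the filter's 0.535 CPM, so Gli1 was tested here only because of its EGF/FGF level. The lines gave unequal values. ANS4 had 16 counts in BMP/FGF and 3 in BMP, a ratio of 5.20 (1.49 to 27.8), and BL6 had 15 and 9, a ratio of 1.79 (0.734 to 4.64). The fitted log2 fold changes were 2.29 and 0.82, and their difference of -1.47 did not pass the interaction test (FDR = 0.358). Leaving out ANS4 BMP replicate 1 gave 1.11 (FDR = 0.0651), and leaving out replicate 2 gave 1.26 (FDR = 0.0551). In BL6 alone the change was 0.83 (FDR = 0.330). Over 17 alternatives that gave a value the change ran from 0.49 to 2.29, with adjusted p from 0.00703 to 0.330. Exons of Gli1 overlap those of Arhgap9 and Gm47200 on the opposite strand, and the sources do not state whether strand was used in quantification.

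**Figure D2:**
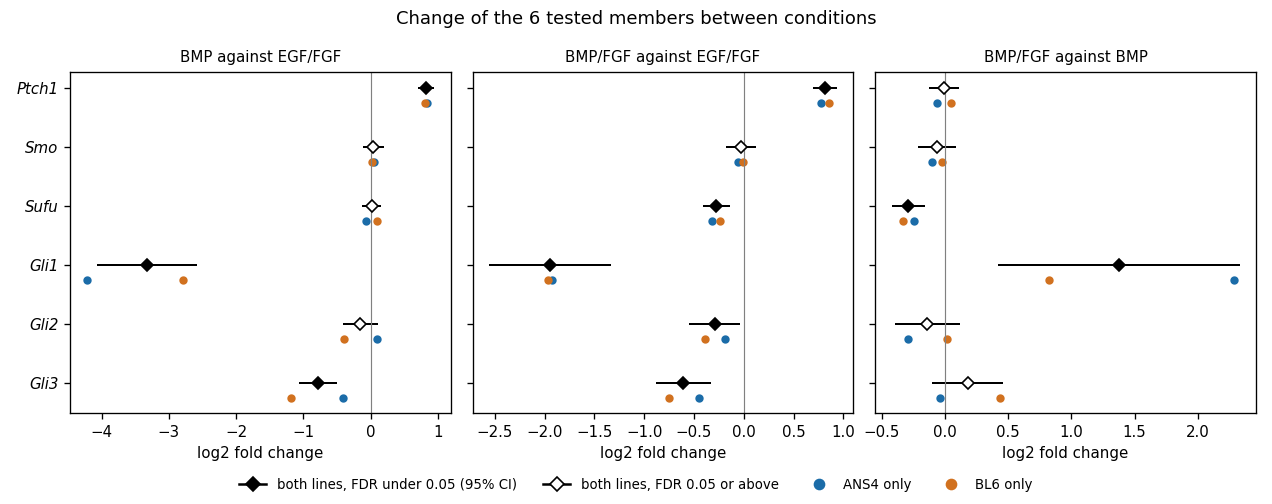
Log2 fold change of the 6 tested members in each comparison, with a separate horizontal scale in each panel. Diamonds give the fit over both lines with its 95% confidence interval (filled where FDR is under 0.05), and dots give the ANS4 (blue) and BL6 (orange) lines alone. Ptch1 lies at 0.82 and 0.81 against EGF/FGF, the Gli1 interval is the widest in each panel, and the dots of Gli3 in BMP lie at -0.40 and -1.18.

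Gli2, a further activator, lies at chr1:118834132-119053619 on the minus strand. Its level in EGF/FGF was 7.35 and 8.89 CPM in ANS4 and 10.04 and 9.40 in BL6. In BMP it was 8.39 and 9.02 in ANS4 and 6.89 and 7.82 in BL6, above the mean of EGF/FGF in ANS4 and below it in BL6. In BMP/FGF it was 7.06 and 7.17 in ANS4 and 7.43 in both BL6 libraries. The groups overlapped in each comparison. The change against EGF/FGF was -0.15 (SE 0.12, FDR = 0.234) in BMP and -0.29 (SE 0.12, FDR = 0.0285) in BMP/FGF. The BMP/FGF call was lost in 6 of 18 alternatives, with an adjusted p of up to 0.217, 5 of which left out 1 library. In BMP the change was 0.10 in ANS4 and -0.40 in BL6, and the difference of -0.50 between them did not pass the interaction test (FDR = 0.1001).

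Gli3, whose processed form is the main repressor of the pathway, lies at chr13:15463235-15730026 on the plus strand. In EGF/FGF it stood at 23.2 and 18.2 CPM in ANS4 and 23.9 and 24.7 in BL6. In BMP it was 15.4 and 15.9 in ANS4 but 10.9 and 10.5 in BL6, and in BMP/FGF 15.8 and 14.5 in ANS4 and 14.6 and 14.3 in BL6. All quiescent libraries lay under all EGF/FGF libraries. A lack of overlap with EGF/FGF, in either direction, was seen for 71.1% (BMP) and 75.8% (BMP/FGF) of all tested genes. The log2 fold change against EGF/FGF was -0.78 (SE 0.13, FDR = 1.77e-05) in BMP and -0.61 (SE 0.12, FDR = 0.000251) in BMP/FGF, a fall of 1.72-fold and 1.52-fold. Both calls held in 18 of 18 alternatives. In BMP the fall differed between the lines, with -0.40 in ANS4 and -1.18 in BL6 (difference -0.78, interaction FDR = 0.00616), where 9.02% of all tested genes passed the interaction test. Gli3 was the 1 member of 6 to pass it there, and none passed it for BMP/FGF against EGF/FGF or against BMP (edgeR and DESeq2 each called 0; at an unadjusted p under 0.05 edgeR gave 0 and 1, with 4.98% and 13.5% of all genes at FDR under 0.05). The difference between BMP/FGF and BMP did not pass over both lines (0.18, 95% CI -0.10 to 0.45, FDR = 0.290), and the lines alone gave -0.04 in ANS4 and 0.44 (FDR = 0.00771) in BL6. An exon of Gli3 overlaps the opposite-strand transcript Gm6556.

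The log2 ratio of Gli2 to Gli3 counts, not corrected for length, was -1.33 ± 0.26 (SD, n = 4) in EGF/FGF, -0.69 ± 0.20 in BMP and -1.02 ± 0.10 in BMP/FGF. Its 4 BMP libraries ranged from -0.87 to -0.43, above the -1.66 to -1.03 of EGF/FGF. The BMP/FGF libraries, at -1.16 to -0.94, overlapped EGF/FGF and lay under all BMP libraries. This ratio was taken after the values of both genes were known and was given no test. The counts do not distinguish the full-length Gli3 protein from its processed repressor.

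Hhip, which binds ligands at the cell surface, lies at chr8:79965851-80058006 on the minus strand. Its counts were 0, 2, 2 and 1 in EGF/FGF, 1, 0, 0 and 1 in BMP and 0, 0, 0 and 1 in BMP/FGF. At this depth no difference was detectable, since each level lay at or under 3 counts.

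Levels of different members were compared per length, as CPM per kilobase of the longest coding transcript in GENCODE vM21. On this scale the order was the same in all 3 conditions: Smo, Ptch1, Sufu, Gli3, Gli2, Gli1 and Hhip. Smo stood at 35.7 ± 1.21, 36.6 ± 3.91 and 34.9 ± 0.370 CPM per kb (SD, n = 4) in EGF/FGF, BMP and BMP/FGF. Ptch1 stood at 14.3 ± 0.2997, 25.3 ± 0.506 and 25.1 ± 1.275, and Sufu at 11.9 ± 0.523, 12.1 ± 0.448 and 9.85 ± 0.260. The Gli genes were far lower, with 2.75, 1.61 and 1.81 CPM per kb for Gli3, 1.34, 1.21 and 1.10 for Gli2, and 0.408, 0.0391 and 0.105 for Gli1. Neighbouring members did not overlap, except that Gli3 (1.29 to 1.94) and Gli2 (1.04 to 1.36) did in BMP. With the median length of the coding transcripts in place of the longest, Gli2 ranked above Gli3 in BMP, their median lengths being 1116.5 and 2004 bases. Ptch1 then ranked above Smo in all 3 conditions, since Ptch1 has 5 annotated coding transcripts with a median length of 1123 bases. The order of Smo and Ptch1 therefore depends on the length used.

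The start regions of Ptch1 and Gli3 are printed here because these members were called against EGF/FGF in both quiescent conditions, in opposite directions, and have an entry among the RefSeq promoter windows (GRCm38.p6). Entries were matched for 6 of the 7 members. Each run is the 250 bases before a RefSeq start, 5′ to 3′ on the gene's own strand: chr13:63565736-63565985 for Ptch1, on the minus strand, and chr13:15463473-15463722 for Gli3, on the plus strand, both within the gene as annotated in GENCODE vM21. Capitals mark GGGTGG or its reverse complement CCACCC, the 6-base core of the Gli binding site.
Ptch1: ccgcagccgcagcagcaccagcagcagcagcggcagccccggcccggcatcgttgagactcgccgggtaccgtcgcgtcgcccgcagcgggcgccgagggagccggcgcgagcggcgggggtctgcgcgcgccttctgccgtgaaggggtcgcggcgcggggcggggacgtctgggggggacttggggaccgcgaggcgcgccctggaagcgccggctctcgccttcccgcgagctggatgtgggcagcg
Gli3: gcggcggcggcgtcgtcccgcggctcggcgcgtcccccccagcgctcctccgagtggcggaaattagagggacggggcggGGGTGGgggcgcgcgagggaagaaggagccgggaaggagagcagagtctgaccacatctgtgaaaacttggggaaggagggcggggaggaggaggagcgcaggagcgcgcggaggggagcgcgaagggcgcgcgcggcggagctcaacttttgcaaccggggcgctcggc
The run of Ptch1 holds 41 CG dinucleotides at 78.4% G and C with no capitals, and that of Gli3 holds 34 at 72.8% with 1 core. The full 9-base motif TGGGTGGTC, or GACCACCCA on the other strand, which contains the core, was found in 0 of the 6 members' windows (250 bases before and 50 after the start) and in 83 of 32851 windows of all genes (0.253%). The core alone was found in 4 of the 6 members' windows, those of Gli2, Gli3, Smo and Hhip, and in 31.5% of all windows. A match of letters is a description of these windows and not a measured site, and sites elsewhere in the genes were not searched.

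The genes whose log2 CPM followed each member most closely over the 12 libraries were taken from the 12466 tested genes that averaged 1 CPM or more. They share the libraries and the large step between media with the members, and Pearson's r is given as a description. For Gli1 they were Serinc2 (0.994), Etv5 (0.987) and Etv4 (0.986). Over the 8 quiescent libraries alone they were Serinc2 (0.984), Lypla2 (0.983) and 2810408A11Rik (0.982). Gli3 was followed by Dph6 (0.976), Evc (0.969) and Gtpbp10 (0.962). Ptch1 was followed by Sorbs2 (0.996), B230354K17Rik (0.995) and Slc35d1 (0.994). Gli2 was followed less closely, by Gapdh (0.949), Slc6a17 (0.900) and Tomm34 (0.883), as were Smo, by Acot5 (0.892), B9d2 (0.831) and Furin (0.828), and Sufu, by Dlgap3 (0.963), Prag1 (0.952) and Tspan5 (0.947). Among the members themselves, r was -0.889 between Gli1 and Ptch1, -0.847 between Gli3 and Ptch1 and 0.746 between Gli1 and Gli3. Between Smo and the other tested members r lay between -0.0606 and 0.392.

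Beyond the members, 62 further genes of the pathway were listed, of which 58 were in the table and 52 were tested. Between BMP and EGF/FGF 17 were higher and 22 lower, between BMP/FGF and EGF/FGF 14 were higher and 25 lower, and between BMP/FGF and BMP 9 were higher and 12 lower. In each comparison this share, at 75%, 75% and 40.4%, was near that of all tested genes (79.6%, 78.9% and 41.4%).

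Among 7 tested genes that make or release ligands, 3 were lower in both quiescent conditions than in EGF/FGF, where 38.8% (BMP) and 38.0% (BMP/FGF) of all tested genes were lower. In BMP, where 40.8% of all tested genes were higher, 2 were higher, Scube2 and Scube3, which did not pass in BMP/FGF (FDR = 0.511 and 0.185). Both encode secreted proteins that help release the ligand and are named here after their values were seen. Scube2 had 0 to 3 counts a library in EGF/FGF and 12 to 19 in BMP, and Scube3 rose by 0.84 on the log2 scale (FDR = 0.0129). Scube2 passed the filter on low counts through BMP alone, where it was high, so its call is not independent of that selection. Dhh stood at 21.1 and 23.8 CPM in ANS4 and 24.9 and 26.2 in BL6 in EGF/FGF. In BMP it stood at 3.42 and 5.26 in ANS4 and 2.49 and 2.03 in BL6, and in BMP/FGF between 5.33 and 6.26. Its log2 fold change was -2.87 (SE 0.18, FDR = 6.09e-11) in BMP and -2.09 (SE 0.17, FDR = 1.96e-09) in BMP/FGF, and 0.79 (SE 0.20, FDR = 0.00483) between BMP/FGF and BMP. The last call was lost in ANS4 alone (0.33, FDR = 0.186), and BL6 alone gave 1.37. Shh varied between the lines, with 2.12 and 1.45 CPM in ANS4 and 5.25 and 3.36 in BL6 in EGF/FGF. It lay between 0.221 and 0.730 in BMP and between 0.916 and 1.23 in BMP/FGF. Shh fell by 2.58 on the log2 scale in BMP (FDR = 3.76e-07) and by 1.40 in BMP/FGF (FDR = 0.000103). The BMP/FGF call was lost in ANS4 alone (-0.76, FDR = 0.0574). Shh was 1.18 higher in BMP/FGF than in BMP (FDR = 0.0132, but 0.118 in BL6 alone and 0.0552 without the line term). Ihh had at most 3 counts in any library and was not tested. Disp2, of the family that releases the lipid-modified ligand, fell from 173 ± 10.8 CPM (SD, n = 4) in proliferating NSCs, reaching 61.3 ± 6.22 in BMP and 61.4 ± 2.79 in BMP/FGF. Disp1, of the same family and named here after its values were seen, stood at 11.4, 10.3 and 10.2 CPM. It did not pass in BMP against EGF/FGF (log2 fold change -0.15, FDR = 0.141). The means of Shh and Dhh both stood in the order EGF/FGF, BMP/FGF and BMP.

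**Figure D3:**
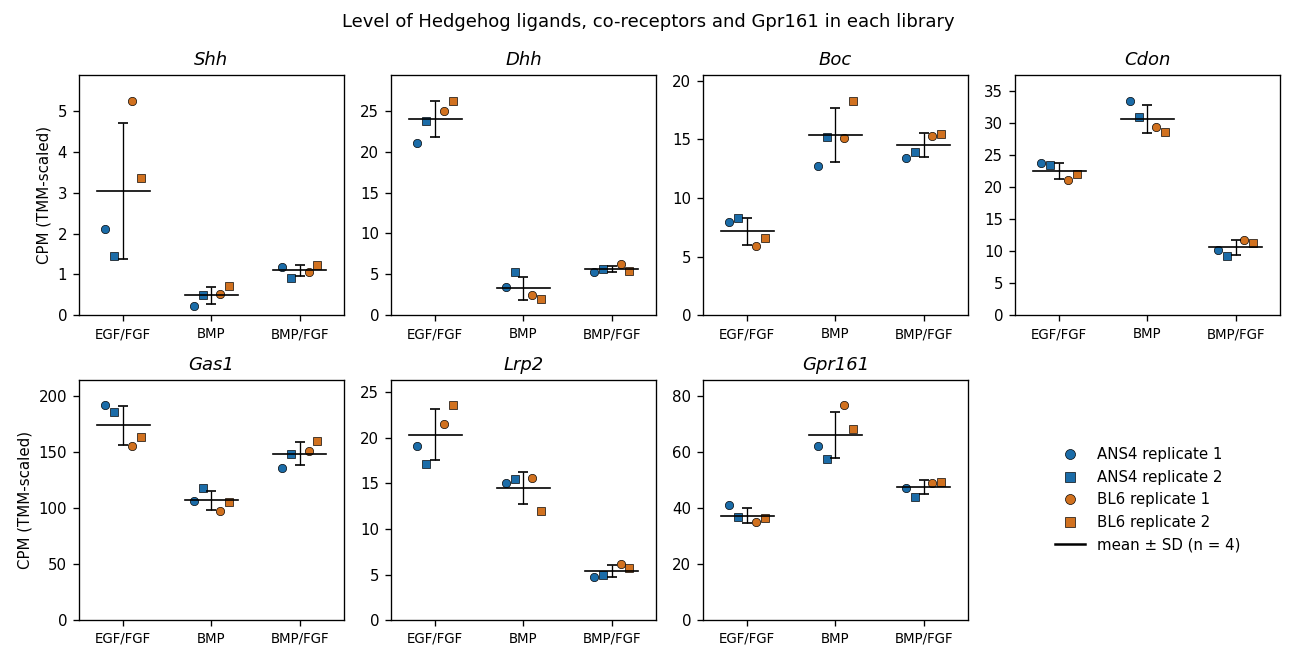
Level of Shh, Dhh, the co-receptors Boc, Cdon, Gas1 and Lrp2, and Gpr161 in each library, in TMM-scaled CPM on linear axes from 0, with symbols and bars as in the plot of the members. Cdon lies between 28.7 and 33.5 CPM in BMP and between 9.21 and 11.7 in BMP/FGF, and Boc is above its EGF/FGF range in both quiescent conditions.

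The co-receptors, which help Ptch1 bind ligand, moved in different directions. Boc stood at 7.15 ± 1.13 CPM (SD, n = 4) in EGF/FGF, 15.3 ± 2.27 in BMP and 14.5 ± 1.01 in BMP/FGF, a log2 fold change of 1.10 (FDR = 2.49e-07) and 1.02 (FDR = 7.42e-07). Cdon, its paralog, was 23.7 and 23.4 CPM in ANS4 and 21.1 and 22.1 in BL6 in EGF/FGF. It lay between 28.7 and 33.5 in BMP and between 9.21 and 11.7 in BMP/FGF. The conditions did not overlap, which for BMP/FGF and BMP was so for 35.6% of all tested genes. Against EGF/FGF the share was 71.1% for BMP and 75.8% for BMP/FGF. Cdon fell by 1.53 on the log2 scale from BMP to BMP/FGF (SE 0.09, FDR = 1.43e-09), and ranked 27 by p among all 13312 tested genes. Gas1 was 174 ± 17.3 CPM in EGF/FGF, 107 ± 8.21 in BMP and 148 ± 9.98 in BMP/FGF, with 0.48 between the quiescent conditions (FDR = 6.76e-05). Lrp2, a large endocytic receptor that also binds Shh, was 20.3 ± 2.80, 14.5 ± 1.72 and 5.37 ± 0.669 CPM and fell by 1.44 from BMP to BMP/FGF (FDR = 1.09e-07). Of 8 tested genes in this group 3 were higher and 2 lower in BMP, and 2 were higher and 4 lower in BMP/FGF, against EGF/FGF. Between BMP/FGF and BMP 1 was higher and 3 lower. The shares called in these comparisons were 62.5%, 75% and 50%, against 79.6%, 78.9% and 41.4% of all tested genes. Mgrn1, a ubiquitin ligase of a complex that lowers surface Smo, stood at 82.9 ± 7.39 CPM in EGF/FGF and rose, with 163 ± 14.1 in BMP and 144 ± 3.89 in BMP/FGF.

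The 26 genes that transmit or restrain the signal inside the cell were all tested. With BMP 8 of them rose and 10 fell from their EGF/FGF level, and with BMP/FGF 8 rose and 11 fell. Between BMP/FGF and BMP, 3 were higher and 4 lower. These made up 69.2%, 73.1% and 26.9% of the 26, against 79.6%, 78.9% and 41.4% of all tested genes. Gpr161, a ciliary receptor that keeps the pathway off, stood at 41.0 and 36.9 CPM in ANS4 and 35.2 and 36.5 in BL6 in EGF/FGF. In BMP it stood at 62.4 and 57.5 in ANS4 and 76.8 and 68.4 in BL6, and in BMP/FGF between 44.0 and 49.4. It rose by 0.82 in BMP (FDR = 3.01e-08) and by 0.34 in BMP/FGF (FDR = 0.000864), with -0.48 (FDR = 0.000118) between the quiescent conditions. Kif7, a ciliary kinesin that organizes Sufu and Gli proteins at the cilium tip, stood at 17.5 ± 0.646, 19.7 ± 1.57 and 19.6 ± 1.53 CPM and passed in no comparison. Stk36, the vertebrate homolog of the fly kinase Fused, rose from 11.9 ± 0.780 to 30.9 ± 2.61 and 27.9 ± 1.45 CPM, and Arrb1, a beta-arrestin, from 32.7 ± 6.60 to 89.7 ± 6.83 and 80.0 ± 4.76. Efcab7, of the ciliary complex that holds Evc, fell by 0.39 in BMP (FDR = 0.00743), a call lost in ANS4 alone (-0.25, FDR = 0.136). Gsk3b, a kinase that takes part in the processing of Gli proteins, moved by 0.13 in BMP (FDR = 0.0495, a call lost in 14 of 18 alternatives) and by -0.29 between BMP/FGF and BMP (FDR = 0.00093).

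Of 20 genes reported as Gli targets in various tissues 17 were in the table and 14 were tested. These moved in both directions, and the counts below do not separate targets reported as induced from those reported as repressed. With BMP 6 of them rose and 8 fell from their EGF/FGF level, and with BMP/FGF 5 rose and 9 fell. Between BMP/FGF and BMP, 4 were higher and 5 lower. The called genes were 100%, 100% and 64.3% of the 14, against 79.6%, 78.9% and 41.4% of all tested genes. Ccnd1, the cyclin of G1 progression and a target of many mitogens besides, stood at 3118 ± 58.4 CPM in EGF/FGF, 84.6 ± 26.8 in BMP and 140.2 ± 9.52 in BMP/FGF, a fall of 37.9-fold and 22.4-fold. Ccnd2 stood at 744 ± 20.7, 653 ± 125 and 286 ± 7.25 CPM. The change of Ccnd2 in BMP was -0.20 (FDR = 0.0264) and did not pass in 8 of 18 alternatives. Mycn, a driver of progenitor growth, went the other way, with 3.53 ± 0.598 CPM in EGF/FGF, 18.0 ± 2.57 in BMP and 9.30 ± 1.78 in BMP/FGF. Its log2 fold changes were 2.34 (FDR = 8.90e-11) and 1.38 (FDR = 2.60e-07) against EGF/FGF. Prdm16, a chromatin regulator of NSCs, rose 7.50-fold in BMP and 3.98-fold in BMP/FGF. Mycn and Prdm16 were lower in BMP/FGF than in BMP, by 0.95 (FDR = 2.34e-05) and 0.91 (FDR = 2.08e-07) on the log2 scale. Boc, Cdon and Gas1 are also counted here, since they stand in both lists.

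**Figure D4:**
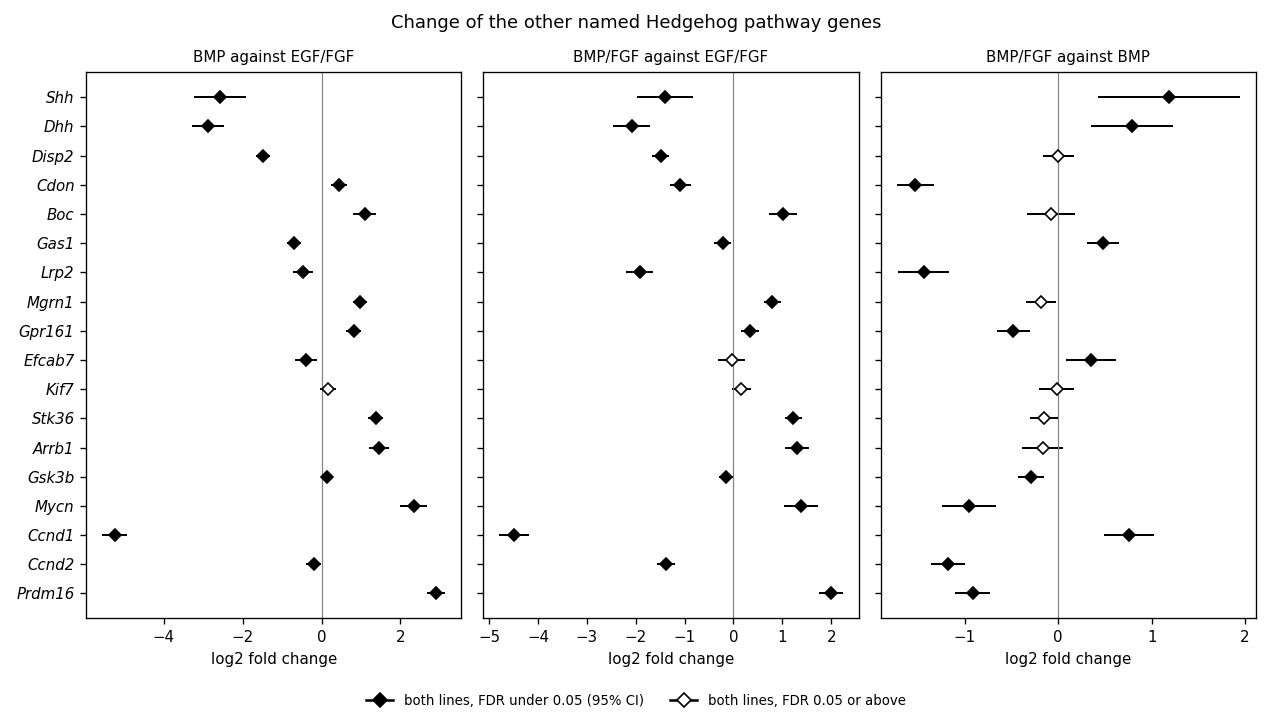
Log2 fold change of 18 further named genes of the pathway in each comparison, with a separate horizontal scale in each panel. Diamonds give the fit over both lines with its 95% confidence interval, filled where FDR is under 0.05. Ccnd1 is farthest to the left against EGF/FGF (-5.24 and -4.49), Prdm16 farthest to the right (2.91 and 1.99), and Kif7 is open in all 3 panels.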

How the data were processed

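Bulk RNA-seq libraries were made with a low input kit for BGISEQ-500RS from RNA of high integrity. Per the submitters' processing notes and methods, the authors used Trim Galore 0.5.0 for trimming, kallisto 0.44.0 with mm10 transcripts for quantification and tximport for gene sums. The deposited table holds these estimated counts as whole numbers, used as they stand. A second deposited table holds log2 values from the rlog of DESeq2 1.27.32, used only in an alternative. Estimated counts share reads among similar transcripts, and strand handling is not given in the sources used here. All per-sample columns were used, with groups from the sample labels.

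The software was edgeR 4.0.16, DESeq2 1.42.0 and limma 3.58.1 under R 4.3.3, with Python 3.11.15. Genes were kept by filterByExpr by condition (minimum count 10; 13312 kept, 4053 not), scaled by TMM and fitted by glmQLFit on all 12 libraries with condition and line as terms. Contrasts and line by condition interactions were tested two-sided by glmQLFTest. SE is the absolute log2 fold change over the square root of F. Ratios of counts had 0.5 added. The 95% intervals of Gli1 ratios are exact intervals for a ratio of Poisson rates. Totals allow 3 counts to be read as 0.155 to 0.168 CPM. The steps were tested on simulated data in which 200 of 13312 genes changed 2-fold in BMP. There edgeR recovered 187 with 14 false calls, and in a simulation of the interaction 143 with 14 false calls. In the data 79.6% of tested genes were called between BMP and EGF/FGF, a share at which the simulation did not check the scaling. Gene positions and lengths are from GENCODE vM21 on GRCm38.

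Alternatives were each line alone, each library left out, limma-trend on the rlog values, the Wald test of DESeq2, its size factors in edgeR, scaling by library size, fitting without the filter or without the line term, a replicate block, and fitting the 8 libraries compared. Named genes were all members, 12 fixed pathway genes, and the 3 largest called changes of each pathway list with a mean of at least 1 CPM, between BMP/FGF and BMP and between BMP and EGF/FGF. The values of 1 named gene are not reported here. For each tested member the 3 genes of highest correlation were named. Members and lists were chosen with earlier results of these data known. The search for the 6-base core was added after the 9-base motif gave no match.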

Additional observations from a re-analysis of the deposited data

Results flagged for a closer look

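For 12 results of 8 genes the change differed between the lines by the interaction test (edgeR, FDR under 0.05), given as the BL6 minus the ANS4 log2 fold change. Gli3 was the only member among them, at -0.78 for BMP against EGF/FGF. Its BMP libraries stood at 10.9 and 10.5 CPM in BL6 and at 15.4 and 15.9 in ANS4. In the same comparison the difference was -1.13 for Dhh, 0.64 for Boc, 0.40 for Gpr161, -0.66 for Arrb1, 0.85 for Ccnd1 and 0.44 for Ccnd2. For BMP/FGF against EGF/FGF it was 0.38 for Gas1 and -0.53 for Arrb1. For BMP/FGF against BMP it was 1.03 for Dhh, -0.64 for Ccnd1 and -0.42 for Ccnd2. The 10 neuroblast and neuron markers, whose sum ranged from 606 to 1205 CPM over the BMP libraries, also differed among them, and their part in these differences was not tested.

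In 3 of 81 gene and condition groups of 4 libraries, a single library stood apart from the others by Dixon's test, which chance alone does in about 1 group in 20. Hhip in BMP/FGF was at 0.0558 CPM in BL6 replicate 2, a single count, with 0 in the others. Ihh in BMP/FGF was at 0.0559 CPM in BL6 replicate 1, likewise a single count with 0 in the others. With all others at 0 Dixon's ratio is 1 whatever the count, so the rate of 1 in 20 does not apply to Hhip and Ihh. Lrp2 in BMP was at 11.9 CPM in BL6 replicate 2, with the others between 15.1 and 15.5.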

How the results depend on the processing

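Over the member results, 299 of 323 alternatives kept the direction and the side of the threshold, 9 lost a call, 2 gained one and 13 turned the sign of a change that had not passed. For the other named genes these numbers were 906, 38, 12 and 16 of 972. The number of members higher in BMP/FGF than in BMP, which rests on Gli1, was 0 in place of 1 with only the 8 libraries compared, where Gli1 did not pass the filter, and 0 to 1 with single libraries left out. In BL6 alone that number was 1 but the gene was Gli3. With ANS4 alone, the log2 fold change was 0.0992 for Gli2 and -0.0666 for Sufu in BMP against EGF/FGF, 0.134 for Efcab7 in BMP/FGF against EGF/FGF, and -0.0420 for Gli3, 0.147 for Kif7 and -0.0497 for Disp2 in BMP/FGF against BMP. With BL6 alone the last comparison gave 0.0169 for Gli2 and 0.0503 for Ptch1. On rlog values Sufu was -0.0108 in BMP against EGF/FGF, and in BMP/FGF against BMP Ptch1 was 0.00821 and Disp2 -0.000990. In that comparison Disp2 was also -0.0102 with DESeq2 size factors, -0.0102 with the Wald test of DESeq2 and -0.0415 with library size only. With single libraries left out, BMP against EGF/FGF ranged from -0.0181 to 0.0917 for Smo and from -0.0174 to 0.0392 for Sufu, and BMP/FGF against EGF/FGF from -0.121 to 0.0778 for Efcab7. For BMP/FGF against BMP the ranges were -0.0312 to 0.00727 for Ptch1, -0.165 to 0.0181 for Boc, -0.0712 to 0.0232 for Kif7 and -0.0721 to 0.0565 for Disp2. The cause of these turns was not tested. Within each line, differences between replicates 1 and 2 correlated between conditions at -0.0711 to 0.0529 across 13312 genes. This did not compare the lines with each other. In BMP replicate 2 of Smo was the higher in both lines, and whether samples of the same number shared a handling step across lines was not tested. A replicate block kept all 6 numbers of members called (1 and 2 in BMP against EGF/FGF, 1 and 4 in BMP/FGF against EGF/FGF, 1 and 1 between them, higher and lower), and of the named genes it changed only the call of Gsk3b in BMP against EGF/FGF (0.13, FDR = 0.0809). Depth limits Gli1, at 1 to 8 counts in quiescent libraries, and leaves Hhip and Ihh without a test.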
